A study of Homo sapiens with 16 samples.

Results

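RNF43 was overexpressed in HEK293 cells from constructs that by their names keep its RING domain (G659fs and WT) or stop before it (R117fs), with no construct sequence at hand to check this, and the 8 libraries of G659fs and WT were set against the 4 libraries of R117fs. HEK293 is a human line derived from embryonic kidney. G659fs is a frameshift at codon 659, far behind the RING. WT is the unchanged protein. R117fs is a frameshift at codon 117, in front of the RING. GFP, a fluorescent protein, was overexpressed in the control cells. Each group had 4 libraries, so the comparison used 12 of the 16 libraries of the series, and the 4 GFP libraries gave the reference level. All groups share the cell line and the overexpression. The labels name neither the promoter of the constructs nor clones, and do not say whether a group's libraries stem from different cultures. The p-values therefore rest on a library-to-library spread that could be technical. G659fs and WT together are called the RING-retaining libraries.

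RNF43 is a single-pass membrane protein and an E3 ubiquitin ligase. Its extracellular part binds Wnt receptors and R-spondins, and its cytosolic RING recruits a ubiquitin-conjugating enzyme, so that Frizzled receptors are ubiquitinated, taken up and degraded. The protein is made at the endoplasmic reticulum (ER), as membrane proteins are. The ER answers a load of unfolded protein with the unfolded protein response, in which the sensors ATF6, IRE1 and PERK raise chaperones, disulfide isomerases and the machinery that degrades misfolded proteins.

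The reference coding sequence places both frameshifts relative to the RING, and 3 stretches of it are shown for that reason. They come from transcript ENST00000407977 of GENCODE 29 on GRCh38 (chromosome 17, minus strand, 783 codons, 10 exons) and are written in the direction of the coding strand. The first holds codons 107 to 127 and spans exons 3 and 4 (chr17:58363595-58370967), with codon 117 in capitals. The second holds the RING, codons 272 to 312 in exons 7 and 8 (chr17:58360165-58360818), with the 8 cysteine and histidine codons that bind zinc in capitals. The third holds codons 649 to 669 in exon 9 (chr17:58357769-58357831), with codon 659 in capitals.
Around codon 117: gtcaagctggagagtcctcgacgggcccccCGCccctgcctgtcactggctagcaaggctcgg
RING: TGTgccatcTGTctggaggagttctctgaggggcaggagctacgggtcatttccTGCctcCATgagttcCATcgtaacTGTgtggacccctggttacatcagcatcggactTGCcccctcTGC
Around codon 659: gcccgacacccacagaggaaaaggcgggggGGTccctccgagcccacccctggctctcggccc
The first RING cysteine lies 155 residues behind R117, and the last lies 347 residues in front of G659.

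Kallisto's estimated counts were summed per gene and are given as CPM, each library's counts scaled to a common total, after TMM scaling, which corrects for library composition. Estimated counts per library summed to between 29886062 and 44738520 in G659fs, between 32761360 and 46779570 in WT, between 20364357 and 41161835 in R117fs, and between 25441077 and 30937321 in GFP. R117fs replicate 4 lay apart from its group: the SD of its log2 deviations from the mean of the other R117fs libraries was 0.579. No other library exceeded 0.409 on the same measure, and over genes the deviation of replicate 4 went with GC content (Spearman 0.799). By chi-square per degree of freedom, on counts that include RNF43, R117fs replicate 1 also lay apart. It gave 71 to 79.4 with the other R117fs libraries. Replicate 4 gave 61.4 with replicate 2 and 50.3 with replicate 3, and replicates 2 and 3 gave 5.45. Pairs within the other groups gave at most 19.8. The kidney and neurofilament markers of HEK293 had counts in all 16 libraries. NEFM (as CPM of the unscaled library total, like the markers that follow) stood at 113 to 303 CPM and PAX2 at 5.2 to 7.64 CPM. LHX1, of the same markers, was near the floor in its lowest library and ranged from 0.0947 to 4.66 CPM. Of the markers of other cell types MUC2 had 0 counts in all 16 libraries, CD3E had 0 counts in 11 and PTPRC reached 0.194 CPM at most.

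The overexpressed gene was examined first. RNF43 had 36248, 38901, 35239 and 47176 CPM in G659fs, 42146, 58625, 52845 and 59768 in WT, 30191, 79637, 94569 and 69368 in R117fs and 13.1, 34.3, 27.8 and 50.3 in GFP. All 12 RNF43 libraries lay far above GFP, and R117fs had both the lowest and the highest of them. The RING-retaining libraries minus R117fs gave a log2 difference of -0.58 ± 0.29 (SE; edgeR quasi-likelihood test, adjusted p = 0.208). Without R117fs replicate 1 it was called (-0.83, edgeR adjusted p = 0.0358), as without R117fs replicates 1 and 4 (-0.94, 0.0297), and with transcript length as an offset it was 0.069, so no direction is given. Transcript ENST00000577625 held 71.7% to 72.9% of the RNF43 counts in the RING-retaining libraries and at most 0.0048% in R117fs, where ENST00000577716 held at least 99.1%. Without the construct sequences the shares do not tell how far the R117fs RNA runs.

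A gene was counted as separated when its CPM in all 8 RING-retaining libraries lay on the same side of all 4 R117fs libraries. It was called when the edgeR quasi-likelihood test gave a Benjamini-Hochberg adjusted p under 0.05 over the 16787 genes tested. Separated genes numbered 570 higher (3.4% of those tested) and 561 lower (3.34%) in the RING-retaining libraries. The test called 946 genes higher (5.64%) and 1238 lower (7.37%), around a median difference of 0.004 on the log2 scale over all genes. Both conditions held for 968 genes, 451 higher (2.69%) and 517 lower (3.08%), of which 51 were at least 2-fold higher and 54 at least 2-fold lower. A further 1216 called genes overlapped between the groups and 163 separated genes were not called. CEBPD, just inside separation, had 3.03 CPM in its lowest RING-retaining library and 3.03 in its highest R117fs library. PIDD1, just outside, had 59.8 CPM both in its highest RING-retaining library and in its lowest R117fs library.

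Single libraries moved these counts. Without R117fs replicate 1 the separated genes numbered 1114 higher and 1205 lower, and without R117fs replicates 1 and 4, an alternative chosen after seeing the data, 2257 and 2454. Fewer libraries make separation easier. Calls also rose, to 1357 higher and 1774 lower without R117fs replicate 1, 1343 and 1490 without replicate 4, and 1897 and 2098 without both. Counts of called list members under these settings stand against these numbers, not against the shares with all libraries. The calls of higher genes fell to 601 without G659fs replicate 2, 610 without WT replicate 2 and 616 without WT replicate 4. The called and separated genes also differed in base composition. Median GC content was 45.4% for the 451 higher genes and 54.9% for the 517 lower genes, against 49.5% for all genes tested. With each library's GC trend removed, the test called 2121 genes higher and 2186 lower, and 667 and 772 genes were separated.

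**Figure D1:**
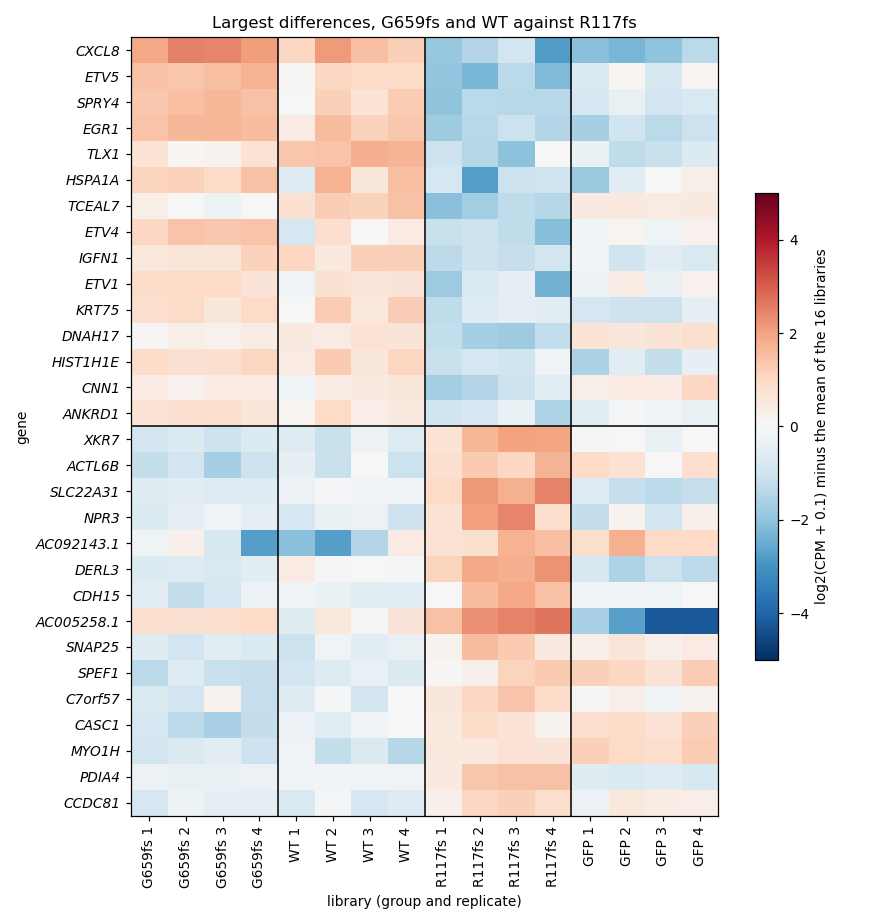
Each row is a gene and each column a library; the 15 upper genes are those with the largest higher values, and the 15 lower genes those with the largest lower values, in the RING-retaining libraries against R117fs. Colour shows log2(CPM + 0.1) minus the gene's mean over the 16 libraries. The GFP columns take the colour of R117fs for some genes (CXCL8, EGR1) and that of the RING-retaining columns for others (DNAH17, TCEAL7).

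The genes farthest above R117fs in the RING-retaining libraries were CXCL8, a chemokine that attracts neutrophils, ETV5, SPRY4, EGR1, TLX1, HSPA1A, TCEAL7, ETV4, IGFN1 and ETV1, followed by KRT75, DNAH17, HIST1H1E, CNN1 and ANKRD1. ETV5, ETV4 and ETV1 are related ETS transcription factors that ERK signalling induces. CXCL8 (ENSG00000169429; GRCh38 chromosome 4, 73740506 to 73743716) had 5.23, 7.83, 7.58 and 5.85 CPM in G659fs, 2.75, 5.94, 3.89 and 3.11 in WT, 0.276, 0.4, 0.622 and 0.103 in R117fs and 0.228, 0.184, 0.246 and 0.447 in GFP. R117fs and GFP libraries overlapped, and every RING-retaining library lay above both groups. The difference was 14.9-fold (log2 3.89 ± 0.31, edgeR adjusted p = 6.24e-07).

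ETV5 had another relation to GFP. It had 8.36, 7.87, 8.57 and 10.2 CPM in G659fs, 3.1, 6.26, 5.8 and 5.93 in WT, 0.677, 0.533, 1.09 and 0.565 in R117fs and 1.75, 3.2, 1.66 and 3.31 in GFP. GFP lay above all R117fs libraries and overlapped the RING-retaining ones only at WT replicate 1. The log2 difference was 3.30 ± 0.27 between the RING-retaining libraries and R117fs, 1.46 ± 0.20 between the RING-retaining libraries and GFP and -1.84 ± 0.34 between R117fs and GFP (edgeR adjusted p = 6.24e-07, 5.72e-05 and 0.00171). ETV4 gave 2.28, 0.85 and -1.43 in the same order and ETV1 2.07, 0.73 and -1.35, all past the threshold. The calls against GFP rested on single libraries: for the RING-retaining libraries, ETV4 lost its call without GFP replicate 3 (edgeR adjusted p = 0.0633) and ETV1 without WT replicate 2 (0.052), without GFP replicate 1 (0.081) and without GFP replicate 3 (0.103). For R117fs against GFP, ETV4 lost it without GFP replicate 2 (0.0546) or 4 (0.0636) and ETV1 without R117fs replicate 1 (0.0619), GFP replicate 2 (0.0577) or GFP replicate 4 (0.0528). With the length offset the difference of R117fs from GFP was not called for ETV5 (0.102), ETV4 (0.195) or ETV1 (0.515), and ETV1 was 1.19 between the RING-retaining libraries and R117fs (edgeR adjusted p = 0.0514).

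SPRY4, a feedback inhibitor of receptor tyrosine kinase signalling, kept GFP between the groups. It had 1.92, 2.18, 2.42 and 2.11 CPM in G659fs, 0.695, 1.74, 1.18 and 1.81 in WT, 0.1, 0.213, 0.207 and 0.205 in R117fs and 0.342, 0.515, 0.307 and 0.372 in GFP. No library of any group reached into the next. EGR1, an immediate early zinc-finger transcription factor (chromosome 5, 138465490 to 138469315), had 50.9, 60.9, 60 and 56.2 CPM in G659fs, 25.6, 56.7, 42 and 48.4 in WT, 5.44, 7.12, 9.02 and 6.73 in R117fs and 5.93, 9.39, 7.5 and 9.09 in GFP. The lowest RING-retaining library, WT replicate 1, was still above every R117fs and GFP library. The log2 differences between the RING-retaining libraries and R117fs were 3.29 ± 0.31 for SPRY4 and 2.84 ± 0.20 for EGR1 (edgeR adjusted p = 4.73e-06 and 1.79e-07).

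The other genes of this group of 15 had lower levels or other functions. DNAH17, an axonemal dynein heavy chain, had 23.9, 28.1, 26.7 and 29.6 CPM in G659fs, 31.3, 30.4, 37.8 and 36.1 in WT, 9.69, 7.17, 6.53 and 9.76 in R117fs and 36.5, 34.4, 36.4 and 40.4 in GFP. Here R117fs alone was low: its log2 difference from GFP was -2.15 ± 0.12 (edgeR adjusted p = 2.44e-09). For the RING-retaining libraries it was -0.28 ± 0.092 (0.0277), a call lost without G659fs replicate 1 (0.0526), WT replicate 2 (0.0538), GFP replicate 3 (0.0541) or GFP replicate 4 (0.108). TCEAL7 was also low in R117fs against GFP, at 3.25 ± 0.506 CPM in G659fs, 7.27 ± 1.45 in WT, 0.983 ± 0.254 in R117fs and 4.37 ± 0.123 in GFP (SD, n = 4 each). CNN1, the smooth muscle protein calponin, averaged 1.71 CPM in G659fs, 1.65 in WT, 0.542 in R117fs and 1.97 in GFP. ANKRD1, a target of the YAP coactivator, averaged 4.32, 3.74, 1.37 and 2.11 CPM in G659fs, WT, R117fs and GFP.

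TLX1, a homeobox factor, was highest in WT at 1.15 ± 0.176 CPM, with 0.463 ± 0.122 in G659fs, 0.115 ± 0.135 in R117fs and 0.136 ± 0.0694 in GFP (SD, n = 4 each). IGFN1, the keratin gene KRT75 and HIST1H1E, a linker histone, had log2 differences of 2.17, 1.91 and 1.82 and levels of at most 3.73 CPM. HSPA1A, an inducible HSP70, stood at 2.52 ± 0.51 (edgeR adjusted p = 0.00603). Its neighbour HSPA1B is a near-identical copy and gave 0.25 ± 1.33 (0.922), so the division of reads between them is uncertain.

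**Figure D2:**
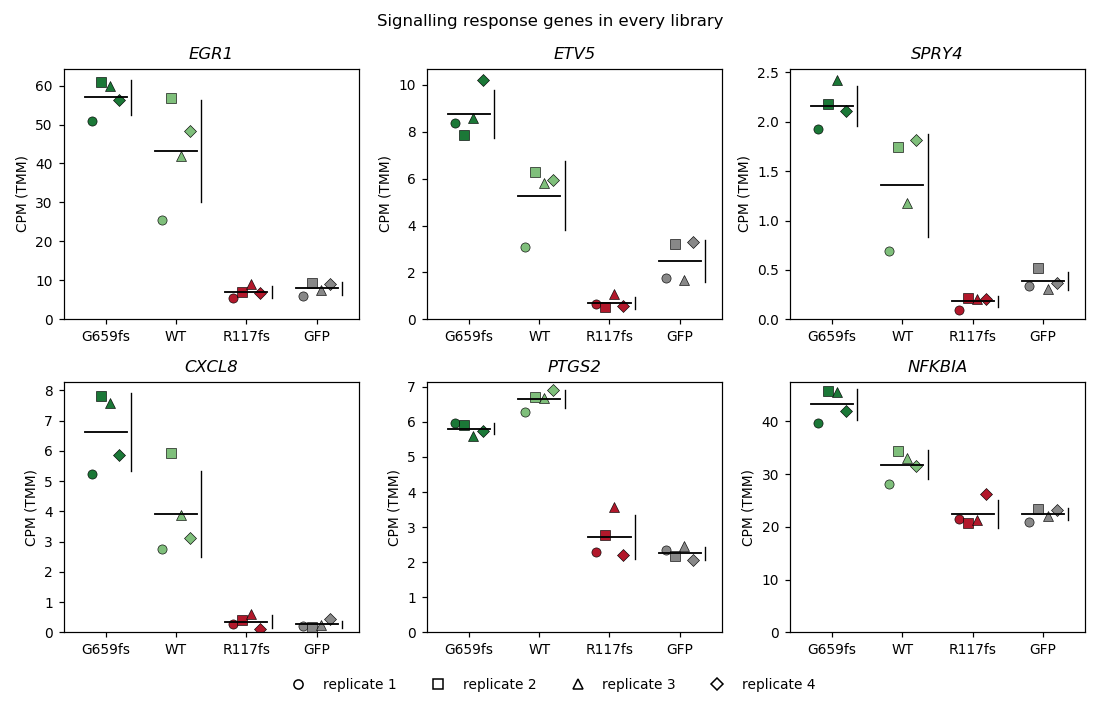
Each panel shows a gene's CPM after TMM scaling (linear axis from 0) in the 16 libraries, grouped as G659fs, WT, R117fs and GFP, with a symbol per replicate; the horizontal line is the mean and the vertical bar the mean ± SD of 4 libraries. In all 6 panels the R117fs points lie below every G659fs and WT point, and GFP lies near R117fs for EGR1, CXCL8, PTGS2 and NFKBIA.

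Gene lists for signalling pathways, chosen with earlier results of these data known, had more members called higher than the 5.64% of all genes. Of 21 genes of RAS/MAPK feedback and output, 12 were called higher and 0 lower and 6 were separated, with a median of 0.60 on the log2 scale against 0.004 for all genes. The length offset left 7 calls. EGR1, FOSL1 and CCND1 also stand in other lists below. Besides EGR1, SPRY4 and the ETS factors, SPRED1, an inhibitor of RAS activation, had 13.5, 14.6, 14.9 and 14.4 CPM in G659fs, 10.3, 14.7, 11.3 and 12.7 in WT, 7.85, 9.41, 9.33 and 5.08 in R117fs and 9.12, 11.4, 9.56 and 9.65 in GFP (log2 0.73 ± 0.13, edgeR adjusted p = 0.00133). With the length offset the call was lost (0.47, adjusted p = 0.0769). DUSP6, an ERK phosphatase of the same list, gave 0.67 ± 0.25 and was not called (0.0785).

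Immediate early genes, which growth factors induce without new protein synthesis, had 8 of 25 called higher and 0 lower, with a median of 0.21. With the GC trend removed 14 were called higher, where 2121 of all genes were, against 946 without that step. FOS, an AP-1 subunit, had 9.86, 11.3, 10.8 and 12 CPM in G659fs, 3.42, 9.8, 6.48 and 7.07 in WT, 0.928, 2.37, 5.28 and 1.54 in R117fs and 2.01, 2.5, 1.69 and 3.58 in GFP. R117fs replicate 3 reached above WT replicate 1, so FOS was called (log2 1.90 ± 0.35, edgeR adjusted p = 0.00281) but not separated. ARC at 1.06, FOSL1 at 0.94 and FOSL2 at 0.54 were also called and not separated, and FOSL2 lost its call with the length offset (0.31, adjusted p = 0.28). MCL1, an anti-apoptotic BCL2 relative, was separated with the smaller difference of 0.30 ± 0.074.

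TNF/NF-kappaB responses had 12 of 24 members called higher and 2 lower, and 6 separated whether called or not, with a median of 0.39. Of all genes 7.37% were called lower, and the 2 lower members are near that share. PTGS2, the prostaglandin synthase COX-2, had 5.96, 5.92, 5.6 and 5.75 CPM in G659fs, 6.29, 6.71, 6.68 and 6.9 in WT, 2.28, 2.77, 3.57 and 2.21 in R117fs and 2.36, 2.17, 2.46 and 2.05 in GFP. All G659fs and WT libraries lay in a narrow band above R117fs and GFP (2.33-fold above R117fs, log2 1.22 ± 0.10, edgeR adjusted p = 1.15e-06). NFKBIA, the inhibitor of NF-kappaB that NF-kappaB itself induces, had 39.6, 45.8, 45.5 and 41.9 CPM in G659fs, 28.1, 34.3, 33.1 and 31.6 in WT, 21.4, 20.7, 21.3 and 26.3 in R117fs and 20.9, 23.3, 22.1 and 23.2 in GFP. G659fs lay above WT, and R117fs was at the level of GFP (log2 -0.0023 ± 0.087, edgeR adjusted p = 0.991).

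IL32, a cytokine, differed in that R117fs lay above GFP. It averaged 8.74 ± 1.21 CPM in G659fs, 9.39 ± 1.47 in WT, 4.19 ± 1.24 in R117fs and 2 ± 0.22 in GFP (SD, n = 4 each), and R117fs minus GFP was 1.02 ± 0.23 (edgeR adjusted p = 0.0062). The NF-kappaB subunit RELB gave 0.65 ± 0.11 between the RING-retaining libraries and R117fs and was separated. The chemokine CCL20 gave 3.03 ± 0.55 at levels of at most 0.568 CPM and was not separated. The called genes on the other side were BIRC3, an inhibitor of apoptosis, at -1.22 ± 0.29 and TNFAIP2 at -0.44 ± 0.10. Both lost the call with the length offset (edgeR adjusted p = 0.171 and 0.363), and BIRC3 also without R117fs replicate 2 (0.0576).

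Among TGF-beta and BMP feedback genes 6 of 21 were called higher and 0 lower, with a median of 0.21. They were ID1, ID2, ID3 and ID4, inhibitors of basic helix-loop-helix factors, the ligand BMP2 and the inhibitory SMAD6. ID2 had 167, 163, 163 and 155 CPM in G659fs, 129, 158, 139 and 143 in WT, 106, 104, 114 and 89.9 in R117fs and 103, 117, 116 and 112 in GFP. R117fs again overlapped GFP, and the difference to the RING-retaining libraries was 0.55 ± 0.067 (edgeR adjusted p = 6.46e-05). Without R117fs replicate 4 the list had 10 called members, where 1343 of all genes were called higher, against 946 with all libraries.

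The EGR1 promoter is shown because EGR1 led the immediate early genes. It is RefSeq's sequence on GRCh38.p14, 250 bases before to 50 after the start, on the plus strand (chr5:138465229-138465528), with capitals marking 2 CArG boxes, the motif that serum response factor binds.
EGR1 promoter: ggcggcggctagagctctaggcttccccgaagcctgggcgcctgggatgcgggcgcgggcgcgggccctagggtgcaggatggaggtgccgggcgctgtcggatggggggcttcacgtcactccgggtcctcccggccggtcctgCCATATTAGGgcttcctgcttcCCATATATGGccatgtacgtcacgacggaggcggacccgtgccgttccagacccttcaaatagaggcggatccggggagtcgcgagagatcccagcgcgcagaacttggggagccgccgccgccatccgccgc
Promoters were found for 11820 of the 16777 gene symbols tested. CArG boxes stood on either strand in 1.14% of the 17321 promoters and in 3 of 24 promoters of immediate early genes. In promoters of the called and separated genes their share was 1.03% for the higher and 0.956% for the lower genes. The NF-kappaB site stood in 13.8% and 13.4% of those promoters, against 13.5% of all, and in 16 of 34 promoters of the NF-kappaB list.

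Cytosolic heat shock chaperones, which fold new and heat-damaged proteins outside the ER, were higher in the RING-retaining libraries, and here R117fs lay below GFP. Of 25 genes tested 11 were called higher (5.64% of all genes were) and 0 lower, 9 were separated and the median was 0.25. The median difference from GFP was 0.05 in the RING-retaining libraries and -0.25 in R117fs. DNAJB1, an HSP40 cochaperone, had 111, 118, 120 and 133 CPM in G659fs, 105, 151, 121 and 143 in WT, 70.1, 69.2, 77.3 and 79.6 in R117fs and 130, 174, 131 and 178 in GFP. All R117fs libraries lay below all others. The log2 difference was 0.76 ± 0.11 between the RING-retaining libraries and R117fs and -1.05 ± 0.12 between R117fs and GFP (edgeR adjusted p = 0.000209 and 2.05e-05).

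HSPA8, the constitutive HSP70 of the cytosol, had 875, 940, 908 and 948 CPM in G659fs, 931, 1026, 901 and 967 in WT, 767, 474, 528 and 449 in R117fs and 757, 893, 760 and 899 in GFP. R117fs replicate 1 lay close to GFP while the other 3 R117fs libraries were far lower. HSP90AA1, the inducible cytosolic HSP90, had 1448, 1489, 1465 and 1454 CPM in G659fs, 1387, 1627, 1426 and 1519 in WT, 1113, 999, 1058 and 704 in R117fs and 1406, 1671, 1407 and 1685 in GFP. HSPH1, an HSP110, had its lowest value, 87.4 CPM, in R117fs replicate 4, which was also lowest for HSP90AA1. The log2 differences were 0.76 ± 0.11 for HSPA8, 0.61 ± 0.095 for HSP90AA1, 0.45 ± 0.086 for HSPH1, 0.52 ± 0.068 for DNAJA1 and 0.30 ± 0.062 for HSPE1, all called and separated. Without R117fs replicates 1 and 4 the list had 13 members called higher and 1 lower. In that setting 1897 of all genes were called higher and 2098 lower, against 946 and 1238 with all libraries.

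Promoters of DNAJA1 and HSPA8 are shown as the sequences of called members that hold the heat shock element, searched as GAANNTTCNNGAA on both strands. They are RefSeq's on GRCh38.p14, written in the direction of transcription, with the element in capitals. The first lies on the plus strand (chr9:33025023-33025322) and the second on the minus strand (chr11:123062087-123062386).
DNAJA1 promoter: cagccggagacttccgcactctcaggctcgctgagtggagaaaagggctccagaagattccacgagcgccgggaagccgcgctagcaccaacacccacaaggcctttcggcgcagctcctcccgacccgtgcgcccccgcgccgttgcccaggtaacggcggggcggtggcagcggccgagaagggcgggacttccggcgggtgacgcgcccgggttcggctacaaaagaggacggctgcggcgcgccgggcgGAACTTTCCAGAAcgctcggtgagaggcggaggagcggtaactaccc
HSPA8 promoter: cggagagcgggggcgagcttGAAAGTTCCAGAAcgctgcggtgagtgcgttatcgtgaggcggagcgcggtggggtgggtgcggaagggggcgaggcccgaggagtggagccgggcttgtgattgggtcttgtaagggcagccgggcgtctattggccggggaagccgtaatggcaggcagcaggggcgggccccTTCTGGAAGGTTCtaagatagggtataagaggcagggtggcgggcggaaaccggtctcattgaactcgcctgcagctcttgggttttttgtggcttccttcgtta
The element stood in 65 of 17321 promoters (0.375%), in 8 of 36 promoters of the heat shock list, and in 9 of 484 promoters (1.86%) of the called and separated higher genes. Of 523 promoters of the lower genes 2 (0.382%) held it. A match describes the letters of the window and not a site in use.

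**Figure D3:**
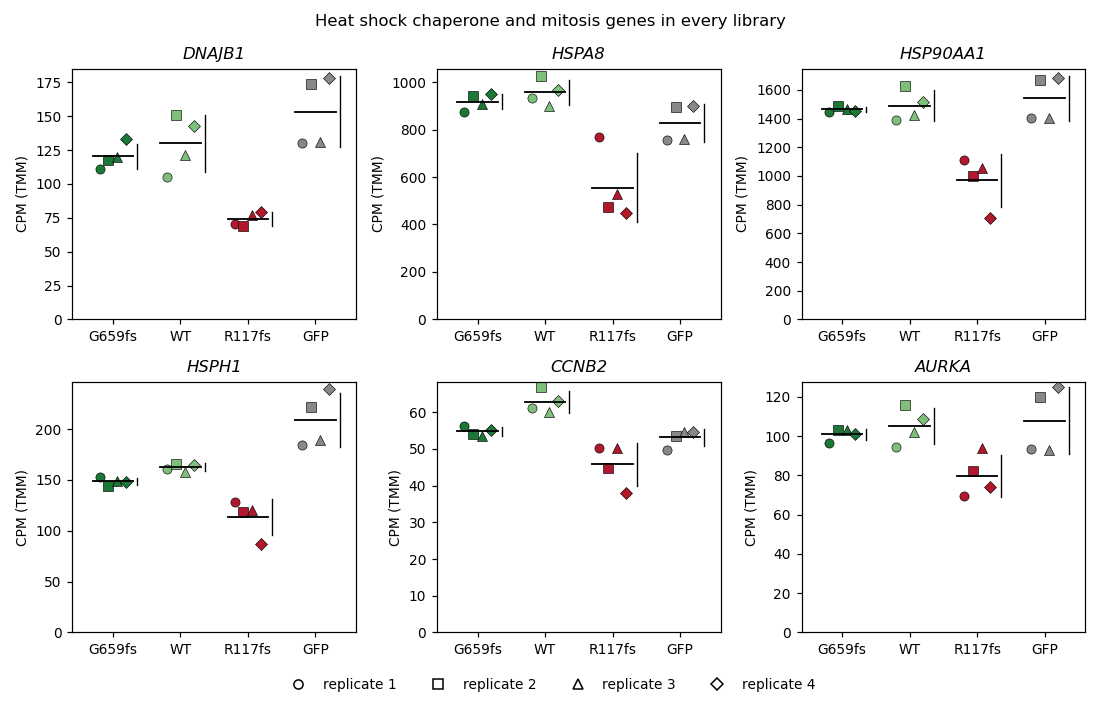
Each panel shows a gene's CPM after TMM scaling (linear axis from 0) in the 16 libraries, grouped as G659fs, WT, R117fs and GFP, with a symbol per replicate; the horizontal line is the mean and the vertical bar the mean ± SD of 4 libraries. R117fs is the lowest group in every panel, and R117fs replicate 4 is the lowest library for HSPA8, HSP90AA1, HSPH1 and CCNB2.

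Genes of mitosis and the spindle were also higher in the RING-retaining libraries than in R117fs. Of 34 tested 17 were called higher (5.64% of all genes were) and 0 lower, 11 were separated whether called or not, and the median was 0.26. Their median difference from GFP was -0.04 in the RING-retaining libraries and -0.29 in R117fs. CCNB2, a mitotic cyclin, had 56.3, 54.2, 53.6 and 55.2 CPM in G659fs, 61.1, 66.9, 60.1 and 63.2 in WT, 50.3, 44.8, 50.3 and 38 in R117fs and 49.6, 53.6, 54.7 and 54.6 in GFP (log2 0.35 ± 0.068, edgeR adjusted p = 0.0025). CCNB1 gave 0.26 and the spindle kinase AURKA 0.37. KIF23 at 0.24 and ECT2 at 0.40, both needed for cytokinesis, were lowest in R117fs replicate 4 by a wide margin.

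The mitosis count moved with single libraries. It was 8 without G659fs replicate 2, 8 without WT replicate 2, 8 without WT replicate 4, 10 without G659fs replicate 1, 11 without G659fs replicate 3 and 11 without G659fs replicate 4. Without R117fs replicate 4 it was 16, and without R117fs replicates 1 and 4 it was 9, where AURKA lost its call (edgeR adjusted p = 0.176). In bulk RNA, more cells in mitosis and more RNA per cell cannot be told apart. DNA replication genes had 7 of 31 called higher and 2 lower, against 5.64% and 7.37% of all genes, with a median of 0.04. They had 4 higher without R117fs replicate 2 and 14 higher without replicates 1 and 4. In these settings 656 and 1897 of all genes were called higher, against 946 with all libraries. RRM2, the regulated subunit of ribonucleotide reductase, averaged 209 CPM in G659fs, 203 in WT, 144 in R117fs and 138 in GFP.

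The genes farthest below R117fs in the RING-retaining libraries were XKR7, ACTL6B, SLC22A31, NPR3, AC092143.1, DERL3, CDH15, AC005258.1, SNAP25, SPEF1, C7orf57, CASC1, MYO1H, PDIA4 and CCDC81, of which DERL3 and PDIA4 are genes of the ER. XKR7, of the XK family of membrane proteins, had 0.279, 0.344, 0.247 and 0.34 CPM in G659fs, 0.348, 0.226, 0.5 and 0.357 in WT, 1.05, 2.16, 2.75 and 2.72 in R117fs and 0.57, 0.626, 0.461 and 0.596 in GFP. R117fs lay above all other groups (log2 -2.62 ± 0.25 for the RING-retaining libraries against R117fs, edgeR adjusted p = 5.11e-06). NPR3, the clearance receptor of natriuretic peptides, likewise averaged 0.645 CPM in G659fs, 0.572 in WT, 3.18 in R117fs and 0.73 in GFP.

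In other genes of the 15 the RING-retaining libraries lay below both R117fs and GFP. ACTL6B, the neuronal actin-like subunit of BAF chromatin remodelling complexes, had 0.139, 0.184, 0.0741 and 0.17 CPM in G659fs, 0.319, 0.158, 0.442 and 0.162 in WT, 0.853, 1.28, 1.04 and 1.69 in R117fs and 0.988, 0.81, 0.461 and 0.894 in GFP. SNAP25, a SNARE of synaptic vesicle release, averaged 0.548 CPM in G659fs, 0.643 in WT, 1.98 in R117fs and 1.28 in GFP. SPEF1 averaged 0.373, 0.515, 1.58 and 1.93 CPM in G659fs, WT, R117fs and GFP, CASC1 0.392, 0.881, 1.63 and 2.1, and MYO1H, a class I myosin, 0.502, 0.499, 1.48 and 2.13. R117fs overlapped GFP for ACTL6B, SNAP25, SPEF1 and CASC1 and lay below it for MYO1H. For C7orf57 (log2 difference -1.58) GFP instead overlapped the RING-retaining libraries and lay below all R117fs libraries. CCDC81 gave a log2 difference of -1.49.

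CDH15, the muscle cadherin (chromosome 16, 89171767 to 89195492), and SLC22A31, a member of the SLC22 transporter family (89195761 to 89201664), are neighbours. SLC22A31 had 1.71, 1.77, 1.68 and 1.7 CPM in G659fs, 2.2, 2.53, 2.38 and 2.43 in WT, 5.47, 12.5, 9.48 and 15.4 in R117fs and 1.67, 1.14, 1.04 and 1.15 in GFP, and CDH15 averaged 0.37, 0.47, 1.87 and 0.586 CPM. Both were highest in R117fs. AC092143.1 (-2.22) overlaps the genes MC1R and TUBB3 in the annotation, and AC005258.1 (-1.76) overlaps OAZ1, LSM7 and others, so their counts are uncertain.

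Chaperones of the ER were lower in the RING-retaining libraries than in R117fs. HSPA5, the ER chaperone BiP (ENSG00000044574; GRCh38 chromosome 9, 125234853 to 125241330), had 833, 790, 773 and 822 CPM in G659fs, 1087, 1085, 1081 and 1077 in WT, 1254, 2427, 2649 and 2147 in R117fs and 652, 649, 620 and 600 in GFP. The 4 groups did not overlap and ran in the order GFP, G659fs, WT, R117fs. The log2 difference was -1.18 ± 0.12 between the RING-retaining libraries and R117fs, 0.57 ± 0.13 between the RING-retaining libraries and GFP and 1.75 ± 0.15 between R117fs and GFP (edgeR adjusted p = 8.1e-06, 0.00284 and 5.24e-07). G659fs and WT were not called apart (-0.43, 0.0782).

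PDIA4, an ER disulfide isomerase, had 241, 233, 231 and 241 CPM in G659fs, 260, 269, 263 and 266 in WT, 405, 776, 831 and 812 in R117fs and 196, 180, 189 and 173 in GFP. R117fs replicate 1 stood well below the other R117fs libraries and still above all RING-retaining ones (log2 -1.50 ± 0.12, edgeR adjusted p = 6.24e-07). It was also the R117fs library with the least RNF43, and the part of that level in the result was not tested. HYOU1, the ER chaperone GRP170, had 143, 131, 131 and 138 CPM in G659fs, 173, 157, 172 and 164 in WT, 223, 300, 304 and 367 in R117fs and 125, 110, 117 and 100 in GFP (log2 -0.99 ± 0.089, adjusted p = 2.39e-06). DERL3, a derlin of ER-associated degradation, averaged 2.24 ± 0.157 CPM in G659fs, 3.82 ± 0.668 in WT, 13 ± 3.97 in R117fs and 1.56 ± 0.363 in GFP (SD, n = 4 each).

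Of the 25 ER chaperones and other genes of the unfolded protein response 12 were called lower and 0 higher, 7 were separated, and the median was -0.23. Of all genes 7.37% were called lower. HSP90B1 (the ER HSP90, GRP94) gave -0.61 ± 0.09, CRELD2 (a disulfide isomerase-like protein induced by ER stress) -0.71 ± 0.084, CRELD1 -0.56 ± 0.079 and HERPUD1, which helps degrade misfolded ER proteins, -0.67 ± 0.084. The median difference of the list from GFP was 0.24 in the RING-retaining libraries and 0.47 in R117fs. Not all members were called. XBP1, spliced by IRE1, gave -0.05 ± 0.057 (edgeR adjusted p = 0.6) and the cochaperone DNAJB9 0.099 ± 0.095 (0.521). For both genes G659fs and WT were called apart, so a small pooled difference need not hold for each group. G659fs minus WT was -0.35 for XBP1 (edgeR adjusted p = 0.00823) and -0.44 for DNAJB9 (0.0275), the latter call being lost without some single libraries. DNAJB9 was -0.11 with the length offset and -0.01 without R117fs replicate 4, so no direction is given for it. The list had 15 members called lower and 2 higher without R117fs replicate 4, and 18 and 2 without replicates 1 and 4. In these settings 1490 and 2098 of all genes were called lower, against 1238 with all libraries.

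**Figure D4:**
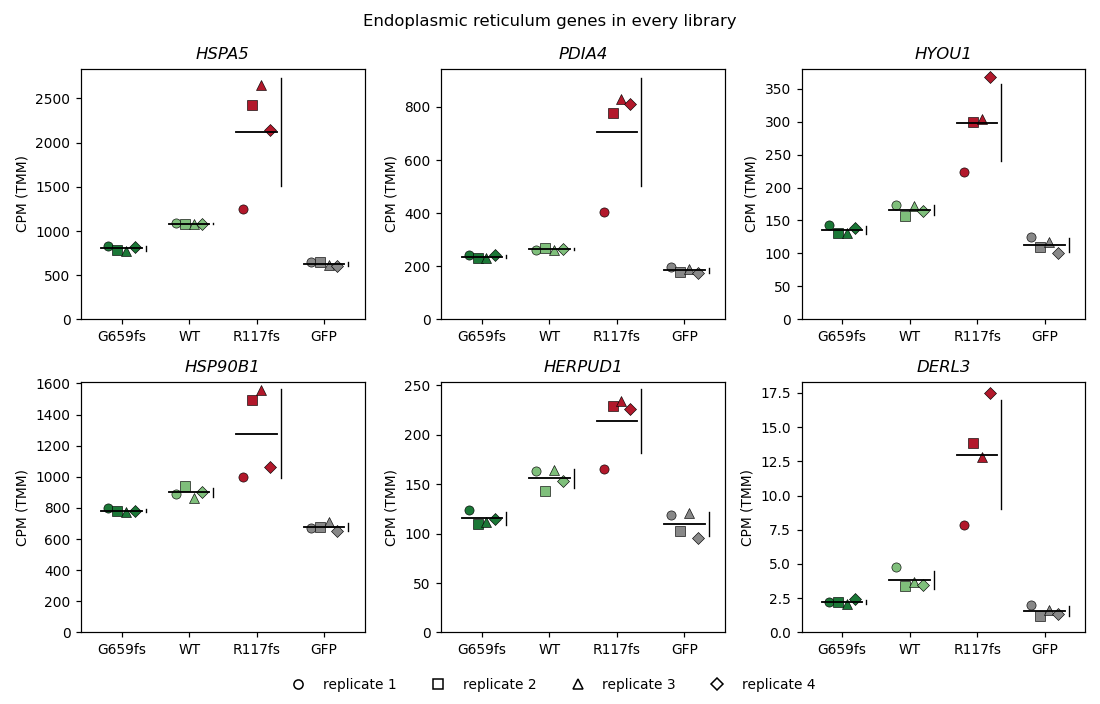
Each panel shows a gene's CPM after TMM scaling (linear axis from 0) in the 16 libraries, grouped as G659fs, WT, R117fs and GFP, with a symbol per replicate; the horizontal line is the mean and the vertical bar the mean ± SD of 4 libraries. R117fs is the highest group in all 6 panels and its replicate 1 is its lowest library in each.

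The other ER lists had smaller shares called. Disulfide isomerases and ER oxidoreductases had 5 of 19 called lower and 1 higher, with a median of -0.03. PDIA4, PDIA6 (-0.37), P4HB (-0.38) and PDIA3 (-0.20) were lower and TXNDC12 (0.24) was higher. PDIA3 lost its call without R117fs replicate 2 or 3 (edgeR adjusted p = 0.0717 and 0.0578), and the list had 5 higher without R117fs replicate 4 and 3 without replicate 1. Of 23 genes of ER-associated degradation, 4 were called lower and 0 higher. They were DERL3, the ubiquitin ligase SYVN1 (-0.45 ± 0.075), its partner SEL1L (-0.70 ± 0.10) and the lectin OS9 (-0.22 ± 0.05). Without R117fs replicates 1 and 4 it was 8 lower and 1 higher. Translocation, glycosylation and COPII export had 10 of 38 called lower and 1 higher, with a median of -0.04, and included the COPII coat gene SEC31A (-0.44), the signal peptidase subunit SEC11C (-0.37) and the oligosaccharyltransferase subunit DDOST (-0.20). That lower count was 6 without G659fs replicate 3, R117fs replicate 2 or R117fs replicate 3, and 22 without R117fs replicates 1 and 4. In that last setting 2098 of all genes were called lower, against 1238 with all libraries.

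The promoters of HSPA5, HSP90B1 and CRELD2 are shown as those of called and separated ER genes with an ER stress response element, which ATF6 and NF-Y bind, searched as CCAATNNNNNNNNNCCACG on both strands and printed in capitals. They are RefSeq's on GRCh38.p14 in the direction of transcription: HSPA5 on the minus strand (chr9:125241294-125241593), and HSP90B1 (chr12:103930160-103930459) and CRELD2 (chr22:49918384-49918683) on the plus strand.
HSPA5 promoter: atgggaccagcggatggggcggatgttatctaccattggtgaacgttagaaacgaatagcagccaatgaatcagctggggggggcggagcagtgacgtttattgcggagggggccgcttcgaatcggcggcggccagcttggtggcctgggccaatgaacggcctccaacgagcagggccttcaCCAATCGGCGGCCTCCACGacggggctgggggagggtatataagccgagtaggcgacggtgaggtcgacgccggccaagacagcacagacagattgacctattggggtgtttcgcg
HSP90B1 promoter: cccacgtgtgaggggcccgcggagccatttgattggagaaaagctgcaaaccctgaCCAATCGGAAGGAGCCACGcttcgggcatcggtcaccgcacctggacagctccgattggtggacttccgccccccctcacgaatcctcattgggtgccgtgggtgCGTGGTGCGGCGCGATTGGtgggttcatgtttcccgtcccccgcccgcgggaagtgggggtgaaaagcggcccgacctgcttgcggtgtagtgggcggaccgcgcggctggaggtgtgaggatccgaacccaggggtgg
CRELD2 promoter: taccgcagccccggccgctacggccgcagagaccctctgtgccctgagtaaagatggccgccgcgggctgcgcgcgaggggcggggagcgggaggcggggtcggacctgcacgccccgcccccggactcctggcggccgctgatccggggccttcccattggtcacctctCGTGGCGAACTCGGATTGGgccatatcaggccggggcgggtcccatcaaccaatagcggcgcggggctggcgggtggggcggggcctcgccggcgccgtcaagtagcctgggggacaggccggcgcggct
The element stood in 21 of 17321 promoters (0.121%), in 6 of 523 promoters (1.15%) of the called and separated lower genes and in 0 of 484 promoters of the higher genes. The lower genes with a match were ALG12, CRELD2, HSP90B1, HSPA5, PDIA6 and SYNPO. ALG12 and CRELD2 overlap in the annotation on opposite strands. Of 24 ER chaperone genes with a promoter 6 held the element, XBP1 among them, which was not called.

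The integrated stress response had 3 of 30 called higher and 4 lower, with a median of 0.03: PSAT1, of serine synthesis, gave 0.37, while the alanyl-tRNA synthetase AARS gave -0.28 and DDIT3, the stress factor CHOP, -0.72. Without R117fs replicate 1 its higher members were 5. The shares over all genes, for this list and those that follow, were 5.64% higher and 7.37% lower. P53 targets had 1 of 25 called higher (PMAIP1, 0.43) and 5 lower (SPATA18, PHLDA3, AEN, DDB2 and FDXR, between -0.26 and -0.66), and the list's median difference from GFP was -0.36 both in the RING-retaining libraries and in R117fs. FDXR lost its call without R117fs replicate 4 (edgeR adjusted p = 0.0553), R117fs replicate 2 (0.0628) or G659fs replicate 3 (0.0544). Without R117fs replicates 1 and 4 the p53 list had 9 lower, where 2098 of all genes were called lower. Type I interferon responses had 3 of 23 called higher and 1 lower, among them OAS3 at 0.60 and DDX58 at -0.57. Their higher count was 1 without R117fs replicate 1 and 1 without replicate 2, and their lower count 3 without replicate 1. With the length offset 0 were called higher, and OAS3 lost its call (0.64, edgeR adjusted p = 0.0979). The medians were 0.04 over 31 proteasome subunits and 0.08 over 13 mitochondrially encoded genes.

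Wnt signalling is the pathway RNF43 is known to act on. The shares over all genes, to set beside the counts here, were 5.64% higher and 7.37% lower. The Wnt target list includes the overexpressed RNF43, which was not called: it summed to at most 494.7 CPM in GFP and at least 30660 in R117fs. Of 20 Wnt/beta-catenin targets 3 were called higher and 0 lower, with a median of 0.05: the Wnt antagonist DKK1 (0.85 ± 0.21), CCND1 (0.44 ± 0.13) and ZNRF3, the ligase related to RNF43 (0.19 ± 0.054). Of 28 Wnt receptors, R-spondins and antagonists 5 were called higher, all of them Frizzled receptors, and 1 lower, with a median of 0.09, and 8 higher and 3 lower without R117fs replicate 1. FZD7 had 30.7, 31.4, 32.3 and 29 CPM in G659fs, 26.8, 29.6, 27.2 and 26.7 in WT, 23.9, 24, 24.8 and 25.7 in R117fs and 22.8, 25.8, 24.3 and 27 in GFP, and FZD1 averaged 20.8, 17.9, 14.6 and 16 CPM. CCND1 lost its call without R117fs replicate 4 (edgeR adjusted p = 0.0964), replicate 1 (0.0881) or replicate 2 (0.063), without G659fs replicate 2, 3 or 4, without WT replicate 2 or 4 and in the 12 libraries alone. With the length offset CCND1 was 0.082 (0.813) and ZNRF3 lost its call (0.181). The call was also lost for DKK1 without R117fs replicates 1 and 4 (0.109). ZNRF3 lost it without R117fs replicate 2 (0.0892), R117fs replicate 3 (0.0624) or WT replicate 4 (0.0512). Wnt targets had 1 called without R117fs replicate 2 or WT replicate 4.

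YAP/TAZ targets had 4 of 18 called higher, and 2 when any of G659fs replicates 2 and 3, WT replicates 2 and 4 or R117fs replicates 2 and 3 was left out. Glycolysis had 3 of 22, with 5 without R117fs replicate 4 and 1 without most other single libraries. Cholesterol and fatty acid synthesis had 1 of 31 called higher and 2 lower, with 3 higher without R117fs replicate 4 and 4 lower without replicate 1. The shares over all genes were 5.64% higher and 7.37% lower.

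**Figure D5:**
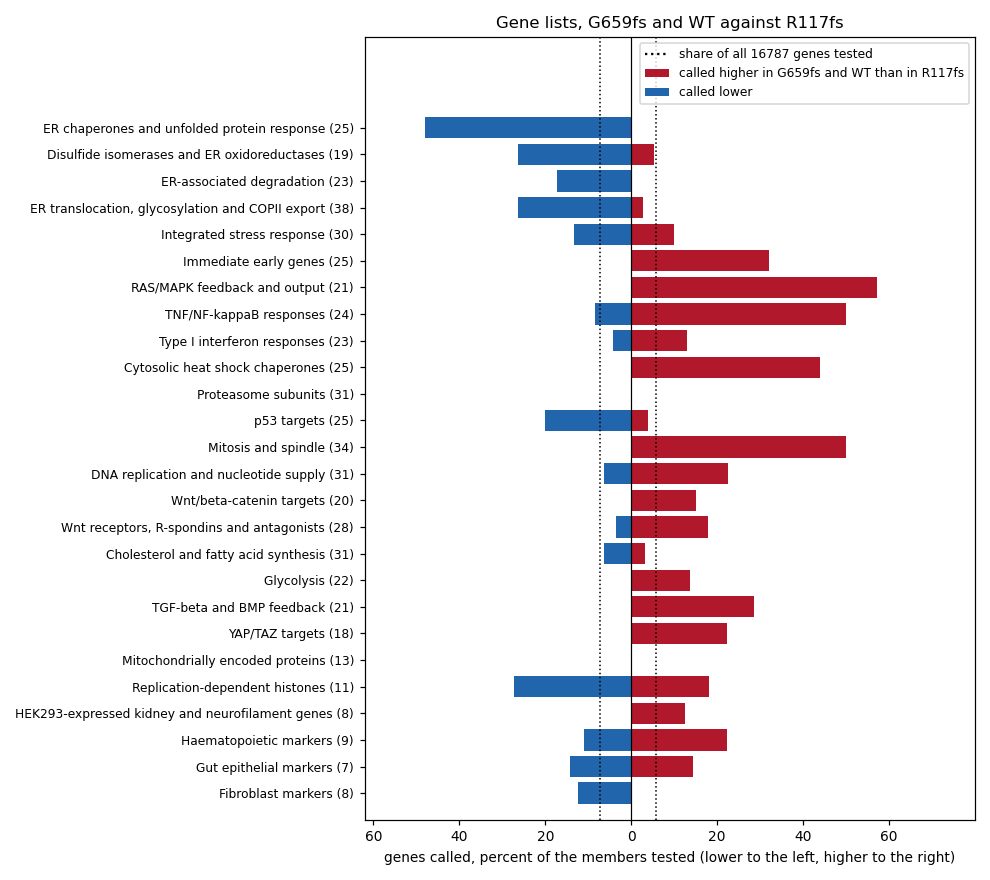
Bars show the percent of each list's tested members (their number in parentheses) called higher (right) or lower (left) in the RING-retaining libraries against R117fs by edgeR, and dotted lines show the share over all genes tested, 5.64% higher and 7.37% lower. Signalling, heat shock and mitosis lists extend to the right and ER lists to the left.

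Markers of other cell types were compared with the shares over all genes, 5.64% higher and 7.37% lower. Of 9 haematopoietic markers tested 2 were called higher and 1 lower, of 7 gut epithelial markers 1 and 1, and of 8 fibroblast markers 0 and 1. Their summed levels were 13.17 to 14.09, 11.3 to 14.07, 11.52 to 16.64 and 15.7 to 19.48 CPM for haematopoietic markers in G659fs, WT, R117fs and GFP. Fibroblast markers summed to between 63.99 and 77.84 CPM in G659fs, between 49.13 and 58.9 in WT, between 52.12 and 81.3 in R117fs, and between 57.68 and 74 in GFP, COL1A1 alone being at 30.4 to 62.7 CPM. Gut markers summed to between 33.29 and 35.95 CPM in G659fs, between 31.54 and 35.51 in WT, between 31.35 and 39.91 in R117fs, and between 29.16 and 30.48 in GFP. Of 8 genes expected of HEK293, 1 was called higher. Replication-dependent histones, of which 2 of 11 were called higher and 3 lower, share reads between near-identical copies. The haematopoietic and gut counts in each direction fell by 1 when R117fs replicate 3 was left out. The part of any of these in the results was not tested.

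The level of GFP was no condition for separation, although the GFP libraries entered the filter and the spread of the fit behind the calls, and it lay on either side. Of the 451 genes called and separated higher, 206 (45.7%) had GFP overlapping R117fs and below all RING-retaining libraries, as CXCL8, EGR1, TLX1, IGFN1 and KRT75 did. For 111 (24.6%) GFP overlapped the RING-retaining libraries and lay above all R117fs libraries, as for ETV5, TCEAL7, ETV4, ETV1 and DNAH17. It overlapped both in 105 genes and fell strictly between in 5, among them SPRY4, NIPAL1, CA13 and DEGS1. The 517 lower genes divided alike, with 211 (40.8%) at the R117fs side, such as ACTL6B, AC092143.1, SNAP25, SPEF1 and CASC1, and 119 (23%) at the RING-retaining side, such as XKR7, NPR3, C7orf57, KCNE2 and CFAP77. GFP lay strictly between for CDH15, CLBA1, TRIM35, C11orf68 and ZKSCAN4. CLBA1 had 8.12, 8.77, 7.9 and 8.85 CPM in G659fs, 10.8, 8.27, 8.89 and 7.97 in WT, 14.5, 18.5, 17.8 and 21.4 in R117fs and 14, 13.1, 12.1 and 13.7 in GFP. Over all genes 27.2% were called between the RING-retaining libraries and GFP and 15.6% between R117fs and GFP, and both comparisons use the same GFP libraries.

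Each RING-retaining group was also set against R117fs alone, over the same R117fs libraries. Of all genes 14.4% were called between G659fs and R117fs and 8.11% between WT and R117fs. Between G659fs and WT 5.67% of all genes were called, and 55 of the 968 (5.68%), a share at the background. In 45 of the 55 G659fs lay farther from R117fs than WT did, and in 10 WT did, against 639 and 313 of the 952 over all genes. Of the separated lower genes the tally was 33 and 1, and of the separated higher genes 12 and 9.

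The leading genes with such a difference went both ways. CXCL8 (log2 0.74 for G659fs minus WT), ETV5 (0.72), ETV4 (1.12) and NFKBIA (0.44) were higher in G659fs than in WT (edgeR adjusted p = 0.0377, 0.0368, 0.014 and 0.00798), which puts G659fs farther from R117fs. HERPUD1 at -0.43 (0.0208) and CASC1 at -1.18 (0.0156) were lower in G659fs, again the farther group. TCEAL7 at -1.17 (0.000822) and TLX1 at -1.35 (0.00935) were higher in WT. HERPUD1 had 124, 110, 112 and 115 CPM in G659fs, 163, 143, 164 and 153 in WT, 165, 229, 234 and 226 in R117fs and 119, 103, 121 and 95.7 in GFP, so that WT came close to the lowest R117fs library.

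Most of these calls between G659fs and WT were lost without a single library, while the size of the difference changed little. Without G659fs replicate 2 the edgeR adjusted p was 0.142 for CXCL8, 0.0889 for ETV5, 0.067 for ETV4, 0.0889 for HERPUD1, 0.0738 for CASC1 and 0.0617 for TLX1. The log2 differences were then 0.65, 0.77, 1.08, -0.41, -1.15 and -1.21. Without G659fs replicate 3 each of the same 6 genes also missed the threshold. TCEAL7 and NFKBIA kept their calls without any single library, and with the length offset NFKBIA (0.45, adjusted p = 0.077), ETV5 (0.65, 0.202) and CASC1 (-1.20, 0.172) lost theirs.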

How the data were processed

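RNA of 16 HEK293 libraries, 4 for each of G659fs, WT, R117fs and GFP, was sequenced after RNeasy extraction and NEBNext preparation, per the labels' protocols. Per the submitters' processing notes, kallisto 0.45.1 on GRCh38 gave the deposited estimated counts and effective lengths per transcript. The sources used here do not give the strand setting, read length or annotation. Of 178136 transcripts, 162453 (91.2%) matched GENCODE 29 by identifier, and those left out held 1.9% to 2.22% of counts. Estimated counts were summed over 35075 genes and rounded.

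Differences were tested with edgeR 4.0.16 (R 4.3.3; TMM, filterByExpr, robust glmQLFit, glmQLFTest) in 1 fit of 16 libraries with 1 coefficient per group. Adjusted p-values are Benjamini-Hochberg over 16787 genes, threshold 0.05, and SE is the log2 difference over the root of F. The biological coefficient of variation was 0.103. Alternatives used DESeq2 1.42.0, RLE factors, filters, effective length and GC offsets, a replicate block and each library left out.

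Members, lists and tests were chosen with earlier results of these data known. Named genes were RNF43, the 15 largest called and separated protein-coding genes each way with at least 1 CPM, up to 6 called members per list, genes at the edge of separation and the 5 largest per place of GFP. Genes with near-identical copies or overlapping neighbours are uncertain.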

Additional observations from a re-analysis of the deposited data

Results flagged for a closer look

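Among 112 genes in 4 groups of 4 libraries, 1 library stood far from the other 3 in 21 of 448 cases. Chance flags about 5% of groups, so the count over all groups is near what chance gives. That total does not speak to single libraries: every R117fs case fell in replicate 1 or 4, which also lay apart by other measures. The cases are listed as a description. R117fs replicate 1 was the lowest R117fs library for SPRY4 (0.1 CPM), PDIA4 (405), HERPUD1 (165) and IL32 (2.33). R117fs replicate 4 was the lowest for MCL1 (96.4), KIF23 (68.9), ECT2 (59.4) and RRM2 (108) and the highest for C11orf68 (43.1) and NFKBIA (26.3). WT replicate 1 was lowest for ETV5 (3.1 CPM) and highest for KCNE2 (0.695), and WT replicate 2 was lowest for SYVN1 (78.3) and PHLDA3 (16.4) and highest for FZD7 (29.6). In G659fs, replicate 4 was highest for IGFN1 (2.96), replicate 2 lowest for CNN1 (1.54) and replicate 1 highest for ID4 (125). In GFP, replicate 4 was highest for CNN1 (2.76), replicate 2 for AC092143.1 (2.21) and replicate 3 for CCL20 (0.0922).

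The 112 genes were picked from these same data, so the share of them called here measures no excess. G659fs and WT differed from each other by edgeR's test of that difference in 16 of these 112 genes. The share was 5.67% of all genes and 5.68% of the 968 called and separated genes. Only TCEAL7, NFKBIA, SMAD6 and XBP1 kept that call without each single library, and CXCL8, CDC6 and DNAJB9 also lost it in the 12 libraries alone. On the log2 scale, G659fs minus WT was 0.74 for CXCL8, 0.72 for ETV5, 1.12 for ETV4, 0.44 for NFKBIA and 0.57 for SMAD6. It was -1.35 for TLX1, -1.17 for TCEAL7, -1.18 for CASC1, -0.31 for ZKSCAN4, -0.43 for HERPUD1, -0.66 for DDIT3, -0.39 for SPATA18, -0.59 for PHLDA3, -0.31 for CDC6, -0.44 for DNAJB9 and -0.35 for XBP1.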

How the results depend on the processing

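Counts of called genes moved with the GC trend, the libraries in the fit and single libraries, and the cause was not tested. Between the RING-retaining libraries and R117fs, genes called higher numbered 568 in a fit of the 12 libraries alone, 2121 with the GC trend removed, 1897 without R117fs replicates 1 and 4 and 1587 with the GC trend removed and R117fs replicate 4 left out. Leaving out 1 library gave 601 to 1357. Genes called lower numbered 2186 with the GC trend removed, 2098 without R117fs replicates 1 and 4 and 940 to 1774 without 1 library. Separated genes numbered 2257 higher and 2454 lower without R117fs replicates 1 and 4, and 537 to 1114 and 589 to 1205 without 1 library. For G659fs against R117fs, 2412 genes were called, 4893 with the GC trend removed and 1321 to 4010 without 1 library. For WT against R117fs, 1362 were called, 813 in 12 libraries, 853 with the length offset, 2973 with the GC trend removed and 625 to 2605 without 1 library. For G659fs against WT, 952 were called, 379 in 12 libraries, 601 without a filter, 433 with the length offset, 3360 with the GC trend removed, 1663 with DESeq2 and 100 to 3530 without 1 library. For the RING-retaining libraries against GFP, 4567 were called, 7215 with the GC trend removed and 3023 to 7057 without 1 library. For R117fs against GFP, 2620 were called, 1739 with the length offset, 4665 with the GC trend removed and 1455 to 3701 without 1 library.

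Of 107 genes named and called between the RING-retaining libraries and R117fs, 91 kept direction and call in every setting that tested them and 0 changed sign. Of genes not called, RNF43 was 0.069 with the length offset, and called without R117fs replicate 1 (-0.83) and without replicates 1 and 4 (-0.94). DNAJB9 was -0.11 with that offset, -0.12 without R117fs replicates 1 and 4, and -0.01 (without R117fs replicate 4) to 0.19 without 1 library. HSPA1B was -0.64 without R117fs replicates 1 and 4, and -0.83 (without WT replicate 4) to 1.85 without 1 library. Groups share replicate numbers. Deviations of 24 same-numbered pairs correlated at -0.062 to 0.16. Of 48 closest matches, each among the 4 libraries of a group, 18 had the same number. This does not settle whether the numbers pair the libraries. With a replicate block 1236 genes were called higher and 1420 lower, against 946 and 1238 without it, and all 107 named genes kept their call. Leaving out R117fs replicates 1 and 4, or replicate 4 with the GC trend removed, was chosen after seeing the data. Genes under 1 CPM rest on few reads, and intervals of fitted values cover only these libraries.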
